A study of Rattus norvegicus with 241 samples.

Results

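The cells described are 14719 basal mammary epithelial cells of Sprague Dawley (SD) rats, sorted and sequenced one by one in 9 libraries, 1 per rat. They were chosen from the 15982 cells of these libraries by keeping cells with at least 2000 UMIs (unique molecular identifiers, each standing for 1 captured RNA molecule) and leaving out cells with at least 2 SORBS2 and 1 PROCR UMIs or with at least 20 COL3A1 UMIs. The UMI minimum removed 847 cells. Among the rest the SORBS2 and PROCR rule applied to 297 cells and the COL3A1 rule to 123, 4 of them in both. The UMI total and these 3 genes chose the cells and are not read as results.

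The whole series holds 241 samples, 202 bulk and 39 single-cell. The 9 libraries came from virgin female SD rats taken on day 0, when dosing ended. The drug group was 6 rats, SD9 to SD14, given LY2157299 (galunisertib, written LY22157299 in the labels), a small-molecule inhibitor of the TGFβ receptor kinase TGFBR1, at 75 mg/kg by oral gavage 2 times a day for 10 days from about 24 days of age. The control group was 3 rats, SD1 to SD3, given vehicle on the same schedule. All 9 fractions were sorted as CD24+CD29high cells, the basal gate, from which CD31+ cells (endothelium) and CD45+ cells (leukocytes) had been gated out. The labels give no date or batch of dissociation, sorting or library preparation, so a batch of that kind and the treatment cannot be told apart.

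Basal cells form the outer layer of the mammary duct, next to the basement membrane. They express basal keratins and the transcription factor TP63, and most carry the contractile proteins of smooth muscle, with which they expel milk. TGFβ ligands bind TGFBR2, which recruits and activates TGFBR1, and the complex phosphorylates SMAD2 and SMAD3. These join SMAD4 and enter the nucleus, where their targets include SMAD7, which inhibits the receptors in return.

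The members carried the markers of basal cells. With every cell thinned to 2000 UMIs, so that depth was equal, KRT5 (a basal keratin) had a UMI in 72.5 to 89.5% of cells per library, KRT17 in 94.3 to 99.5% and ACTA2 (smooth muscle actin) in 89.6 to 99.3%. In the luminal libraries of the same rats these shares were at most 0.551% for KRT5, 10.8% for KRT17 and 0.448% for ACTA2. KRT14, TP63 and MME were detected in fewer basal cells, at 11.7 to 45.1%, 3.36 to 18.4% and 8.03 to 25.4%, against at most 0.823%, 0.0525% and 1.08% of luminal cells. KRT8, usually counted as a luminal keratin, had a UMI in 59.2 to 86.5% of basal cells, whereas its partner KRT18 was found in 2.34 to 11.5%. Only 20 members had more UMIs of KRT8 and KRT18 together than of KRT14, KRT5, KRT17 and ACTA2 together.

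The libraries differed in size. The drug libraries held 299 to 3587 members and the control libraries 542 to 1689, with median depths of 4728 to 12360 and 4606 to 9133 UMIs per cell. SD13 stood apart, since 221 of its 563 cells were under the UMI minimum and 299 were used. The cells nearest the UMI threshold had 2001 UMIs inside and 1998 outside, and COL3A1 reached 19 UMIs inside and began at 20 outside. Under the SORBS2 and PROCR rule, 226 cells fell just short, with 1 SORBS2 and at least 1 PROCR UMI. A PROCR UMI was held by 3919 members. The paper described a rare basal subpopulation, secretory basal cells, which in SD rats came mostly from treated animals. It was defined by clustering, so such cells may remain among the members. Their part in the gene results was not tested. Of the 117 pairs of libraries with a basal member, none shared more than 7 cell barcodes. The make-up of the RNA moved with the groups. Ribosomal protein genes took 14.6 to 22% of UMIs in drug and 11.6 to 12.9% in control rats (difference of means 6.12 percentage points, two-sided exact permutation test over 6 and 3 rats, p = 0.0238). Without SD3 the difference was 5.75 percentage points and did not pass 0.05 (exact permutation p = 0.0714, where the smallest that 6 against 2 rats can give is 0.0357). The 13 mitochondrially encoded genes took 7.25 to 8.1% of UMIs in drug and 5.28 to 5.47% in control rats (difference 2.33, exact permutation p = 0.0119). The median number of genes per cell at 2000 UMIs was 852 to 962 in drug and 997 to 1026 in control rats (difference -114, exact permutation p = 0.0119, the smallest this design can give). The part of these in the gene results was not tested.

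**Figure D1:**
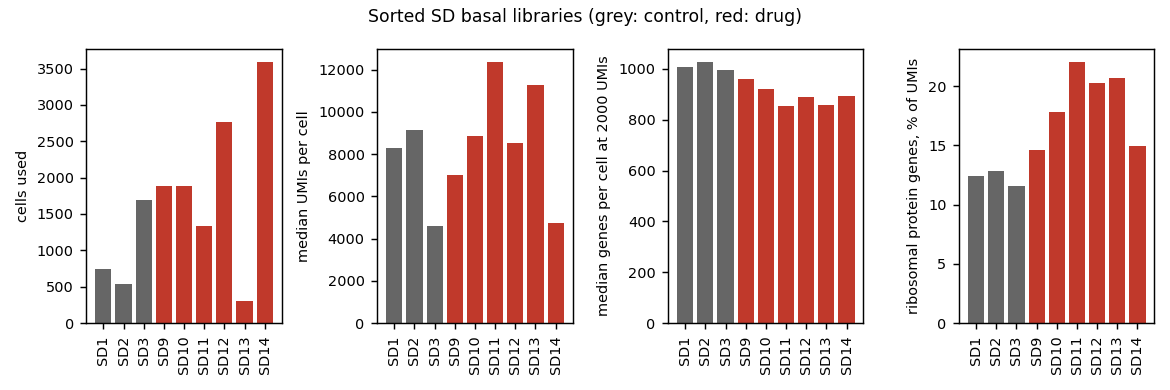
Cells used, median UMIs per cell, median genes per cell at 2000 UMIs and percent of UMIs from ribosomal protein genes, 1 bar per rat for 3 control (grey) and 6 drug (red) rats. Genes per cell at 2000 UMIs are lower in every drug rat (852 to 962) than in every control rat (997 to 1026), and SD13 holds 299 cells.

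The comparison of drug with control asked what basal cells expressed at the end of inhibitor treatment. UMIs were summed per rat and tested with edgeR, and a gene was called at an adjusted p of 0.1 or less. Of 14304 genes tested, 3981 (27.8%) were called, 2062 raised in drug (14.4%) and 1919 lowered (13.4%). For 3238 genes (22.6%) the values of the 9 rats did not overlap between groups. The balance of directions rested on the scaling. With library totals in place of TMM factors, which correct for unequal composition, 613 genes were raised and 4069 lowered, and the median log2 change of all genes moved from 0.08 to -0.32. Levels given here are CPM (UMIs per 1000000 of the library) on the TMM scale.

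The number of calls rested on 2 control rats. It was 789 without SD1 and 252 without SD3, and 2553 to 4547 when any other rat was left out. Whichever rat was left out, 245 genes (97 raised, 148 lowered) were called with the same sign. Of the 167 called genes chosen for description, 100 lost the call without SD1 and 141 without SD3. The 26 that were called whichever rat was left out were ATP6, BHLHE40, CCN2, CD74, CNN2, COX1, COX2, CTTN, GAPDH, HMGB3, HSPA8, HYDIN, IGFBP5, MRPL1, MSMO1, ND2, PHGDH, PSAT1, SOCS3, TXN1, UQCRH and 5 features named by genome scaffold.

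**Figure D2:**
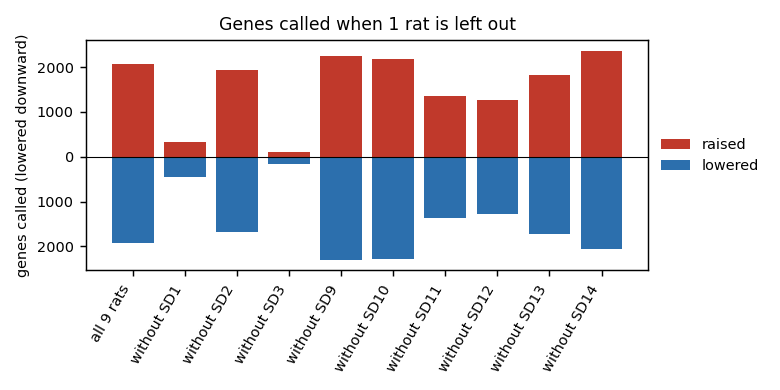
Number of genes called raised (red, upward) and lowered (blue, downward) with all 9 rats and with each rat left out. The bars are shortest without SD3 (252 genes) and SD1 (789 genes).

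Of 21 basal identity genes tested, 4 were raised (19%) and 5 lowered (23.8%), against 14.4% and 13.4% of all genes, with a median log2 change of -0.29 (all genes 0.08). KRT14, the usual partner of KRT5 in basal filaments, was at 275, 225 and 301 CPM in SD1 to SD3 and at 86.4 to 224 CPM (median 120.0) in drug. The groups did not overlap, although SD9 and SD10 (224 and 205 CPM) lay just under the lowest control. KRT14 fell (log2 fold change -0.91, SE 0.29, edgeR adjusted p = 0.05, and adjusted p = 0.153 without SD1 and 0.203 without SD3). TP63, which maintains the basal state, was at 85.8, 62.3 and 81.3 CPM in control and 26 to 53.1 CPM (median 37.8) in drug. It also fell without overlap (log2 fold change -1.003, SE 0.24, edgeR adjusted p = 0.0201, and adjusted p = 0.108 without SD1 and 0.126 without SD3). DST, which links keratin filaments to hemidesmosomes, fell by 1.61 on the log2 scale, JAG2, a Notch ligand, by 0.74, and COL17A1, a hemidesmosome collagen, by 0.49. With library totals the list held 1 raised and 10 lowered genes, without SD1 1 raised and 1 lowered, and without SD3 0 raised and 0 lowered.

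KRT17, a keratin of basal and stressed epithelia, moved the other way, from 5066, 4226 and 5037 CPM in control to 6850 to 10919 CPM (median 7533) in drug. Every drug rat was above every control (log2 fold change 0.74, SE 0.19, edgeR adjusted p = 0.0267, and adjusted p = 0.107 without SD1 and 0.13 without SD3), and with library totals its log2 change was 0.33 and was not called. LGALS7, a galectin of stratified epithelia, rose without overlap (log2 fold change 1.26), as did CAV1, the coat protein of caveolae (0.77). KRT5 was called raised with overlapping groups (log2 fold change 0.56, edgeR adjusted p = 0.0931, and adjusted p = 0.207 without SD1 and 0.369 without SD3). Its call was lost when any of 6 of the 9 rats was left out, and with library totals, where the log2 change was 0.14. KRT15 was not called by edgeR with all 9 rats, at a log2 change of 0.79, but was called by DESeq2 (0.77) and limma voom (0.84). Without SD2 (1.24), without SD14 (0.90) and without SD13 and SD14 together (1.02), edgeR called KRT15 raised. MME was not called by edgeR with TMM in the main comparison (-0.64), but was called by DESeq2 (-0.67) and by edgeR with library totals (-1.02). With TMM, edgeR also called it lowered in cells of at least 5000 UMIs (-0.73) and without SD2 (-0.84) or SD9 (-0.79).

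Contractile genes were called in both directions, with 6 of 21 raised (28.6%) and 5 lowered (23.8%), against 14.4% and 13.4% of all genes. MYH11, the smooth muscle myosin heavy chain, was at 3134, 2433 and 4635 CPM in control and 748 to 1719 CPM (median 1419) in drug. No drug rat reached the lowest control (log2 fold change -1.41, SE 0.27, edgeR adjusted p = 0.0106, and adjusted p = 0.0577 without SD1 and 0.108 without SD3). MYLK, the kinase that activates this myosin, fell by 0.79 on the log2 scale, OXTR, the oxytocin receptor, by 1.33, and CNN2, a calponin, by 1.59, and LMOD1, a leiomodin, by 0.68. ACTA2 was at 1912, 1491 and 1761 CPM in control and 2018 to 7071 CPM (median 2912) in drug, with SD13 and SD14 far above the other drug rats at 6268 and 7071 CPM. It rose (log2 fold change 1.18, SE 0.40, edgeR adjusted p = 0.0612, and adjusted p = 0.158 without SD1 and 0.203 without SD3), together with TAGLN, MYL6 and ACTG2 (log2 fold changes of 0.71, 0.76 and 0.77), which bind or form actin and myosin filaments. MYL9 and TPM2, a myosin light chain and a tropomyosin, made up the rest of the 6 (0.62 and 0.57). With library totals 0 contractile genes were raised and 10 lowered. The list held 0 raised and 2 lowered without SD1 and 0 raised and 1 lowered without SD3. ACTA2 and TAGLN were not called with library totals (0.75 and 0.30), nor without SD2. TAGLN also lost its call without SD13 (log2 change 0.58) and, at 0.39, without SD13 and SD14 together, where the list held 4 raised and 7 lowered genes. Markers of pericytes and smooth muscle, cells that also carry contractile proteins, summed to 209.9 CPM in SD13 against 55.2 CPM in the next drug rat, and their part in the contractile changes was not tested.

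**Figure D3:**
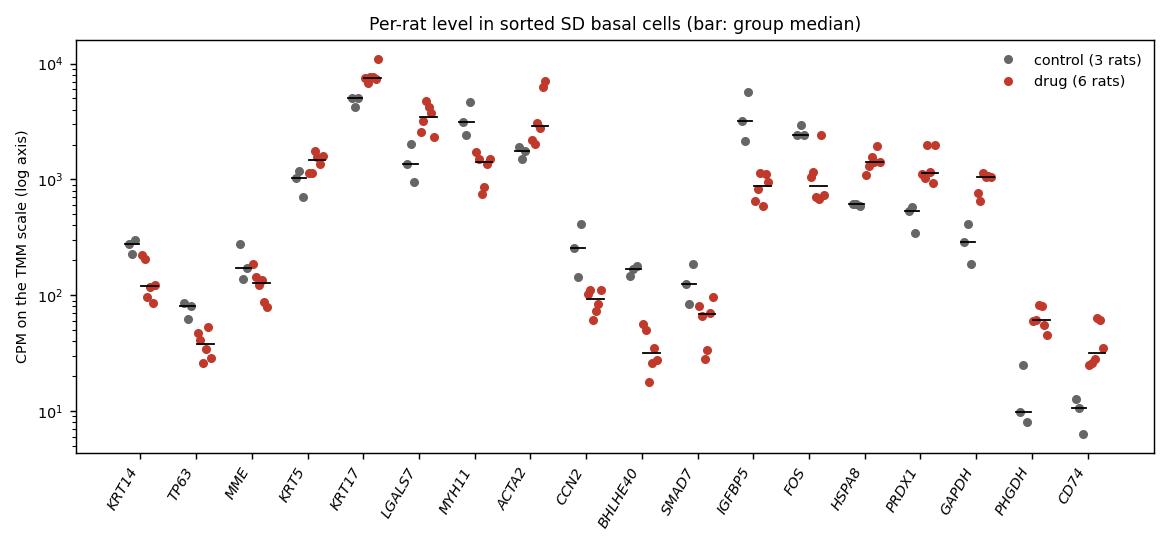
CPM on the TMM scale (log axis) of 18 genes in each of 3 control (grey) and 6 drug (red) rats, with a bar at each group median. KRT14, TP63, MYH11, CCN2, BHLHE40 and IGFBP5 are lower in every drug rat than in any control, and KRT17, LGALS7, ACTA2, HSPA8, PRDX1, GAPDH, PHGDH and CD74 are higher.

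In the TGFβ pathway, several targets and receptors were lower in drug. Of 25 ligand and activation genes, 3 were raised and 4 lowered, shares of 12% and 16% that are near those over all genes (14.4% and 13.4%) and so are no result about this list (median log2 change 0.28, and -0.16 with library totals, where 0 raised and 7 lowered were called). TGFB1 was at 15, 16.1 and 9.33 CPM in control and 15 to 37.1 CPM (median 25) in drug, with overlap (log2 fold change 0.87, SE 0.32, edgeR adjusted p = 0.0732, and adjusted p = 0.169 without SD1 and 0.299 without SD3). The TGFB1 call was also lost without SD11, SD12, SD13 or SD14, and without SD13 and SD14 together (log2 change 0.58). With library totals TGFB1 was at 0.44 and was not called. TGFB2 and TGFB3 were not called (0.28 and -0.08 on the log2 scale). INHBA, an activin subunit, and BMP7, a ligand of the BMP branch, rose (log2 fold changes of 1.32 and 0.86). The integrin subunits ITGAV, ITGB6 and ITGB8, which release TGFβ from its latent complex, fell by 0.97, 0.66 and 0.77. INHBB, another activin subunit, fell by 1.71 at a mean under 20 UMIs per rat. Without SD1 this list held 0 raised and 0 lowered genes, and the same without SD3.

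Of 19 receptor and SMAD genes, 8 were lowered (42.1%, against 13.4% of all genes) and 0 raised (median log2 change -0.63). TGFBR1, the kinase the drug inhibits, was at 29, 20.9 and 31.8 CPM in control and 13.5 to 24.6 CPM (median 16.3) in drug. It fell with overlapping groups (log2 fold change -0.63, SE 0.24, edgeR adjusted p = 0.0851, and adjusted p = 0.239 without SD1 and 0.316 without SD3). The call was also lost without SD11 (-0.58), SD12 (-0.58) or SD13 (-0.59) and with the left-out cells kept (-0.62). TGFBR3, a coreceptor, fell by 0.85. Its call was lost without SD1 (-0.85), SD3 (-0.79) or SD12 (-0.77) and without SD13 and SD14 together (-0.84). TGFBR2 was not called by edgeR with TMM (log2 change -0.84, edgeR adjusted p = 0.117). It was called lowered by DESeq2 (-0.86), by limma voom (-0.97), by edgeR with library totals (-1.21) or with the left-out cells kept (-0.93), and without SD9 or SD10. SMAD4 was at 37.4, 30.4 and 43.2 CPM in control and 7.03 to 28.8 CPM (median 8.64) in drug, SD9 and SD10 being the highest drug rats (log2 fold change -1.35, SE 0.43, edgeR adjusted p = 0.0524, and adjusted p = 0.148 without SD1 and 0.202 without SD3). The SMAD4 call was also lost without SD13 and SD14 together (-1.1). SMAD2 and SMAD3 were not called (-0.23 and -0.03), although edgeR with library totals called SMAD2 lowered (-0.64). The others of the 8 were SMAD7 and the receptors ACVR2A, BMPR1A, ACVR1B and BMPR2, of the activin and BMP branches. The number of lowered genes was 1 without SD1, 0 without SD3 and 13 with library totals.

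Of 29 TGFβ target genes, 8 were lowered (27.6%, against 13.4% of all genes) and 0 raised (median log2 change -0.26). The lowered genes numbered 4 without SD1, 2 without SD3 and 13 with library totals. CCN2, a secreted matrix-associated regulator of growth factors, was at 257, 144 and 415 CPM in control and 60.9 to 110.4 CPM (median 93.4) in drug. All drug rats were below the lowest control (log2 fold change -1.59, SE 0.29, edgeR adjusted p = 0.00883). BHLHE40, a transcriptional repressor that is also part of the clock, was at 148, 168 and 177 CPM in control and 17.7 to 56.8 CPM (median 31.4) in drug, a wide gap (log2 fold change -2.21, SE 0.30, edgeR adjusted p = 0.00334). Both calls held whichever rat was left out. SKI and SKIL, repressors of SMAD activity, fell by 1.69 and 1.46 on the log2 scale without overlap. SMAD7 was at 126, 83.2 and 187 CPM in control and 28.3 to 97.3 CPM (median 68.3) in drug, with overlap (log2 fold change -1.07, SE 0.36, edgeR adjusted p = 0.0595, and adjusted p = 0.152 without SD1 and 0.3 without SD3). Of the 4 ID genes, targets of BMP signalling, 0 were called by edgeR in the main comparison (log2 changes of 0.18 to 0.90). DESeq2 called ID3 raised (0.89). So did edgeR in cells thinned to 2000 UMIs (1.04), with the left-out cells kept (0.997), and without SD9 (1.01) or SD11 (1.02).

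The promoters of the 3 target genes with the largest changes are shown because these genes moved together. They are RefSeq sequences (build GRCr8, 250 bases before to 50 bases after the start of the gene), written 5′ to 3′ along the gene, and capitals mark the motif GGAATG, bound by TEAD factors, on either strand.
BHLHE40, chr4:143174200-143174499, plus strand: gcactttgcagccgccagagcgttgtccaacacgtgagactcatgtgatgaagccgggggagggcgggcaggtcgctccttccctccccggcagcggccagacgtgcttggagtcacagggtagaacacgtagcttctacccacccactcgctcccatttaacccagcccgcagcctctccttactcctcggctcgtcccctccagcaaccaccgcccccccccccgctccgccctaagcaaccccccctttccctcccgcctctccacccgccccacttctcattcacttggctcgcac
SKI, chr5:171064908-171065207, minus strand: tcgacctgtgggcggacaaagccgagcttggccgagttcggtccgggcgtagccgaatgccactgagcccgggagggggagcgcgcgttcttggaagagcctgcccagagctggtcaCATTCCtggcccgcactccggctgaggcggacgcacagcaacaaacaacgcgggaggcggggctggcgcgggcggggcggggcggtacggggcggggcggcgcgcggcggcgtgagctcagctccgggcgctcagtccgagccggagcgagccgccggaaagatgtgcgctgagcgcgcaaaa
CCN2, chr1:22624565-22624864, minus strand: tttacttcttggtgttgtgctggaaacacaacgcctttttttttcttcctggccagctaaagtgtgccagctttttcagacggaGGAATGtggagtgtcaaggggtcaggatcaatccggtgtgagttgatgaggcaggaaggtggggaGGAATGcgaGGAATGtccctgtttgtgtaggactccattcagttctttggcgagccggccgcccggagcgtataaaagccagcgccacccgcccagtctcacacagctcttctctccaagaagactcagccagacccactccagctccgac
The CCN2 window held 3 TEAD motifs, that of SKI 1 and that of BHLHE40 none. None of the 3 held AP-1 (TGANTCA), CRE (TGACGTCA), the SMAD palindrome (GTCTAGAC) or a CArG box, searched on both strands, none of which lies inside another. Of 27457 RefSeq promoters of the same length, 13.9% held the TEAD motif, 7.33% AP-1, 1.91% CRE, 0.215% the SMAD palindrome and 1.64% a CArG box. TEAD stood in 11.4% of promoters of lowered genes and 11.6% of those of raised genes, against 11.2% of the 10154 promoters of tested genes. AP-1 stood in 3.7% and 6.1%, against 4.93%. The windows of KIF2C, NDUFA4L2, TBX21, HYDIN, CTTN and MRPL1, the largest changes with a promoter in the RefSeq table, held none of the 5 motifs.

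Among growth factor genes, 14 of the insulin-like growth factor axis were tested. There 1 was raised (7.14%) and 4 lowered (28.6%), against 14.4% and 13.4% of all genes, although the median log2 change of the list was 0.88. IGFBP5 and IGFBP2 moved in opposite directions. IGFBP5, a secreted binder of these growth factors, was at 3176, 2139.8 and 5676 CPM in control and 588 to 1136 CPM (median 881) in drug. The gap was wide and the call held whichever rat was left out (log2 fold change -2.07, SE 0.29, edgeR adjusted p = 0.00379). IGFBP2, of the same family, was at 1768, 2203 and 1334 CPM in control and 2786 to 4111 CPM (median 3537) in drug, with no overlap (log2 fold change 1.00, SE 0.21, edgeR adjusted p = 0.015, and adjusted p = 0.0883 without SD1 and 0.119 without SD3). INSR, the insulin receptor, and its adaptors IRS1 and IRS2 fell by 1.10, 1.03 and 0.52. The list held 1 raised and 1 lowered without SD1 and 0 raised and 1 lowered without SD3. In the EGF family, 1 of 17 genes was raised and 2 lowered. These shares, 5.88% and 11.8%, are below those over all genes (14.4% and 13.4%) and so are no result about this family. AREG, an EGFR ligand that also served as a luminal marker here, rose, with SD13 (72.8 CPM) inside the control range of 52.3 to 98.9 CPM and the other drug rats above it (log2 fold change 1.88), while EGFR and SPRED1, an inhibitor of RAS signalling, fell by 1.59 and 1.76. The 2 calls among 25 cytokines and chemokines were CXCL12 and IL6, which fell by 1.69 and 1.66, while the median log2 change of the list was 0.51. The lowered share of that list, 8%, is below the 13.4% over all genes. Without SD1 the EGF list held 1 raised and 1 lowered and the cytokine list 0 raised and 1 lowered, and without SD3 neither held a called gene.

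Of 27 immediate early genes, which respond within minutes to stimuli and to tissue handling, 9 were lowered (33.3%, against 13.4% of all genes) and 0 raised. FOS was at 2415, 2933 and 2419 CPM in control. In drug it was at 678 to 1155 CPM in 5 rats and at 2425 CPM in SD13, inside the control range (log2 fold change -1.21, SE 0.35, edgeR adjusted p = 0.0385, and adjusted p = 0.119 without SD1 and 0.148 without SD3). SOCS3, a feedback inhibitor of cytokine signalling, fell by 2.09 and was called whichever rat was left out. The list counted 2 lowered genes without SD1, 1 without SD3 and 15 without SD13 and SD14 together.

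In 5 other signalling lists most genes were not called, and most calls were lowered genes, whose log2 fold changes are given in brackets. Of 18 clock genes 4 were lowered and 0 raised. They were PER1, BHLHE40, HLF and BHLHE41, and PER1, a core clock repressor, fell by 2.21. HLF and BHLHE41 had means under 20 UMIs per rat. PER1, MT2A, SGK1 and KLF9 were the 4 lowered of 14 glucocorticoid-responsive genes, with 0 raised and a list median of 0.07. Of 29 axon guidance genes 10 were lowered and 0 raised, among them the ligands SLIT2 and SEMA5A (-1.25 and -1.10) and the receptor ROBO1 (-1.17). Of 13 hormone receptors 4 were lowered and 0 raised, the progesterone receptor PGR (-1.302), the growth hormone receptor GHR (-0.68), the thyroid hormone receptor THRB (-0.82) and the mineralocorticoid receptor NR3C2 (-2.55). NR3C2 had a mean under 20 UMIs per rat. Among 35 Wnt and Notch genes 7 were lowered, such as the Wnt receptors LRP6 and FZD7 (-1.33 and -1.304) and the Wnt antagonist SFRP2 (-1.24). The 3 raised were the ligands WNT6 and WNT10A and the receptor NOTCH1 (log2 fold changes of 1.36, 1.31 and 0.78). That raised share, 8.57%, is below the 14.4% over all genes. In the order given, the lowered shares of these lists were 22.2%, 28.6%, 34.5%, 30.8% and 20%, against 13.4% of all genes. The lowered genes numbered, in the same order, 2, 1, 3, 0 and 2 without SD1 and 9, 4, 17, 10 and 14 with library totals. Without SD3 the clock list held 1 lowered gene and the other lists no called gene.

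Matrix and junction genes were mostly not called (log2 fold changes in brackets). Of 29 basement membrane and integrin genes 8 were lowered, such as the laminin chain LAMC1 (-0.87) and the integrin subunit ITGA1 (-1.21), and 2 raised, LAMA5 and COL18A1 (log2 fold changes of 1.06 and 0.51). The lowered share was 27.6% and the raised share 6.9%, against 13.4% and 14.4% of all genes. Of 30 fibrillar collagen and matrix genes the 4 lowered were COL5A1, COL12A1, COL14A1 and COL5A2, and the 2 raised were FBLN1 and MGP. These shares, 13.3% and 6.67%, are near or below those over all genes (13.4% and 14.4%) and so are no result about this list. TIMP1, an inhibitor of matrix proteases, was at 97.9, 60.1 and 53.1 CPM in control and 113 to 526 CPM (median 173) in drug, highest in SD14, and rose (log2 fold change 1.67, SE 0.47, edgeR adjusted p = 0.0361, and adjusted p = 0.0935 without SD1 and 0.175 without SD3). It was among 4 raised and 3 lowered of 22 proteases and inhibitors. Shares of 18.2% and 13.6% are near those over all genes (14.4% and 13.4%) and so are no result about this list. Of 24 junction genes 6 were raised, including the tight junction genes OCLN, CLDN3 and CLDN4, and 5 lowered, the catenins CTNNB1 and CTNND1 (-1.35 and -1.17), the desmosomal DSP and DSG2 and the tight junction scaffold TJP1. CLDN3 and CLDN4 are luminal markers too, whose sum was 1697 to 4559.7 CPM in drug and 1244 to 1448 CPM in control rats, and the part of luminal cells in these changes was not tested. The junction list had a raised share of 25% and a lowered share of 20.8%, against 14.4% and 13.4% of all genes. With library totals the junction list held 1 raised and 9 lowered genes. OCLN, CLDN4 and EPCAM were also the 3 raised of 18 genes listed for epithelial-mesenchymal transition, and they are epithelial genes, CLDN4 and EPCAM being on the luminal list as well. The raised share of that list, 16.7%, is near the 14.4% over all genes. Without SD3 none of these 5 lists held a called gene. Without SD1 the counts were 1 raised and 1 lowered for basement membrane, 0 raised and 1 lowered for fibrillar collagens, 1 raised and 0 lowered for proteases, 1 raised and 0 lowered for junctions and 1 raised and 0 lowered for epithelial-mesenchymal transition. With library totals they were 1 raised and 17 lowered for basement membrane, 0 raised and 11 lowered for fibrillar collagens and 1 raised and 5 lowered for proteases. For epithelial-mesenchymal transition they were 1 raised and 2 lowered.

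Most ribosomal protein and respiratory chain genes rose in drug. Of 74 ribosomal protein genes, a set chosen after seeing the values, 59 were raised and 1, RPS27A, which encodes a ubiquitin fusion, lowered (median log2 change 1.03), with 48 raised and 3 lowered on library totals, 45 raised and 0 lowered without SD1 and 30 raised and 0 lowered without SD3. RPL3 was at 2839, 2886 and 3026 CPM in control and 3787 to 6389 CPM (median 5270.5) in drug. Of 28 nuclear-encoded respiratory chain genes 21 were raised and 0 lowered (median log2 change 0.84), with 10 raised on library totals, 6 without SD1 and 2 without SD3. UQCRH, a subunit of complex III, was at 286, 372 and 278 CPM in control and 539.8 to 967 CPM (median 783) in drug. It did not overlap and was called whichever rat was left out (log2 fold change 1.29, SE 0.23, edgeR adjusted p = 0.00928).

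Respiratory chain subunits are also encoded in the mitochondrial genome. Of these 13 genes 9 were raised and 0 lowered (median log2 change 0.88). ATP6, a subunit of ATP synthase, was at 6959, 6312 and 7609 CPM in control and 13409 to 18148 CPM (median 14473) in drug, with the lowest drug rat far above the highest control (log2 fold change 1.11, SE 0.17, edgeR adjusted p = 0.00597). COX1 and COX2, subunits of cytochrome c oxidase and not the cyclooxygenases of the same name, rose with log2 fold changes of 1.00 and 0.93, and ND2, a subunit of complex I, with 0.98. All 4 were called whichever rat was left out. The list held 8 raised and 2 lowered genes with library totals, and 8 raised and 0 lowered without SD1 and 7 raised and 0 lowered without SD3. In ACI basal cells, which are described further on, these genes took 5.91 to 7.09% of UMIs in drug and 5.01 to 5.95% in control rats. The authors had removed cells with much mitochondrial RNA from these tables, so the levels are those of the cells kept.

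Glycolysis and hypoxia genes went both ways, with 8 of 19 raised (42.1%) and 3 lowered (15.8%), against 14.4% and 13.4% of all genes. GAPDH, a glycolytic enzyme, was at 286, 413 and 186 CPM in control and 650.3 to 1139 CPM (median 1051) in drug, so that the lowest drug rat stood well above the highest control (log2 fold change 1.69, SE 0.28, edgeR adjusted p = 0.00715). GAPDH, TPI1 and the ribosomal protein genes have near-identical copies elsewhere in the genome, so their counts are uncertain. HK2, which starts glycolysis, was at 892, 569 and 1257 CPM in control and 239.7 to 604 CPM (median 355) in drug, with SD14 just above the lowest control (log2 fold change -1.29, SE 0.29, edgeR adjusted p = 0.0173, and adjusted p = 0.0816 without SD1 and 0.136 without SD3). The list held 5 raised and 2 lowered without SD1 and 1 raised and 0 lowered without SD3, and 6 raised and 5 lowered genes with library totals.

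Parts of the chaperone, antioxidant and stress response lists rose. Of 14 heat shock chaperones 6 were raised and 0 lowered. HSPA8, the constitutive HSP70, was at 617, 617 and 586 CPM in control and 1097 to 1959 CPM (median 1410.3) in drug, a clear separation that held whichever rat was left out (log2 fold change 1.26, SE 0.21, edgeR adjusted p = 0.00715). Of 14 targets of the antioxidant factor NRF2 6 were raised and 1, the metallothionein MT2A, lowered. PRDX1, a peroxide-reducing enzyme, was at 529.9, 576 and 342 CPM in control and 927 to 1982 CPM (median 1133) in drug (log2 fold change 1.499, SE 0.30, edgeR adjusted p = 0.0124, and adjusted p = 0.0677 without SD1 and 0.108 without SD3), and TXN1, thioredoxin, rose with a log2 fold change of 1.41. Of 13 genes of the integrated stress response 5 were raised and 0 lowered, PHGDH and PSAT1, consecutive enzymes of serine synthesis, SHMT2, HERPUD1 and ATF4, the transcription factor of this response. PHGDH was at 9.76, 24.9 and 8.06 CPM in control and 44.9 to 82.7 CPM (median 60.6) in drug (log2 fold change 2.18, SE 0.36, edgeR adjusted p = 0.00715), and PSAT1 rose with a log2 fold change of 1.93, both whichever rat was left out. Of 20 cholesterol synthesis genes 5 were raised and 0 lowered, MSMO1 (2.04), FDPS, MVD, IDI1 and INSIG1. With library totals the counts were 3 raised and 1 lowered for chaperones, 5 raised and 1 lowered for NRF2 targets, 3 raised and 2 lowered for the stress response and 2 raised and 1 lowered for cholesterol synthesis. In that order, the raised genes numbered 3, 3, 2 and 2 without SD1 and 1, 1, 2 and 1 without SD3.

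**Figure D4:**
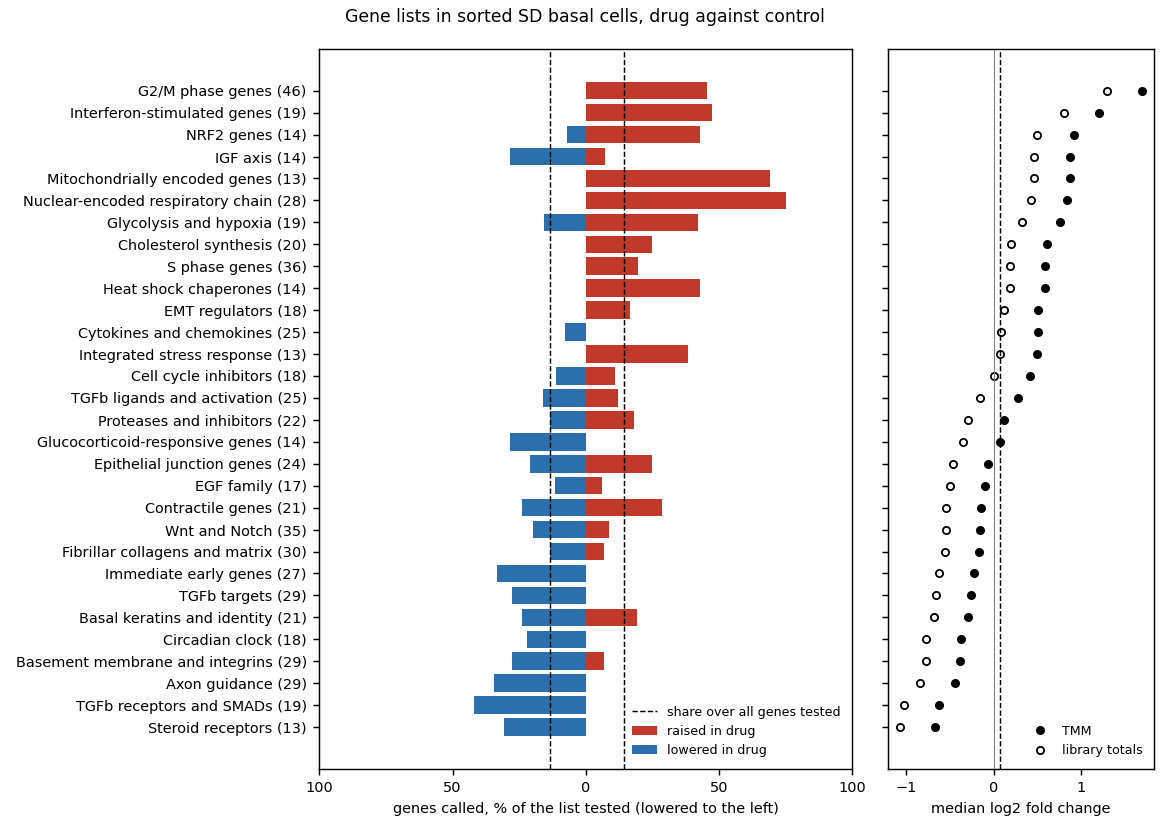
Left, percent of the tested genes of each list called raised (red) or lowered (blue) in drug, with the number tested in brackets and dashed lines at the shares over all genes (14.4% raised, 13.4% lowered). Right, median log2 fold change of each list on the TMM scale (filled) and with library totals (open), with a dashed line at the TMM median of all genes. Nuclear-encoded respiratory chain genes have the highest raised share (21 of 28) and receptors and SMADs the highest lowered share (8 of 19).

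Of 19 interferon-stimulated genes 9 were raised (47.4%, against 14.4% of all genes) and 0 lowered (median log2 change 1.21). The raised genes numbered 3 without SD1, 0 without SD3 and 4 with library totals. BST2 and RSAD2, which block virus release and replication, rose with log2 fold changes of 1.76 and 1.82. CD74, the invariant chain of MHC class II, was at 12.7, 10.5 and 6.36 CPM in control and 25 to 63 CPM (median 31.6) in drug, called whichever rat was left out (log2 fold change 2.01, SE 0.38, edgeR adjusted p = 0.0103). The class II genes RT1-BA and RT1-BB, named below for the size of their change, belong to a family of close copies, so their counts are uncertain. Markers of leukocytes, CD74 included, summed to 31.7 to 82 CPM in drug and 11.3 to 18.9 CPM in control, with 3 of 11 raised (27.3%). The raised markers were CD74, CD68 and LAPTM5, the last at a mean under 20 UMIs per rat. The part of leukocytes in these changes was not tested. The leukocyte list held 1 raised gene without SD1, 1 without SD3 and 2 with library totals. The sort had gated out CD45+ leukocytes, and the deposited tables had been cleared of cells with PTPRC, the gene of CD45.

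Markers of other cells also differed between libraries. Luminal markers summed to 1697 to 4559.7 CPM in drug, highest in SD14, and 1244 to 1448 CPM in control, with 6 of 18 raised (33.3%) and 1 lowered (5.56%). KRT8 alone was at 676, 599 and 618 CPM in control and 752 to 2261 CPM (median 1096) in drug. Fibroblast markers summed to 31.5 to 113 and 20.8 to 49.4 CPM (2 of 11 raised and 0 lowered). Their raised share, 18.2%, is near the 14.4% over all genes. Of 14 endothelial and 4 erythrocyte markers edgeR called 0, and of 12 milk genes CSN1S1 was raised. The sort had gated out CD31+ endothelial cells. Without SD1 the luminal list held 1 raised and 0 lowered and the fibroblast list 0 raised and 0 lowered, and without SD3 neither held a called gene. With library totals the luminal list held 1 raised and 2 lowered genes and the fibroblast list 0 raised and 0 lowered. The part of these cells in the gene results was not tested.

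Division genes differed among the drug rats. Of 46 G2/M genes 21 were raised (45.7%) and 0 lowered (median log2 change 1.71), and of 36 S phase genes 7 were raised (19.4%) and 0 lowered. BIRC5, which acts in chromosome segregation, was at 1.65, 3.1 and 0.53 CPM in control and at 9.57, 10.5, 33, 24.5, 7.25 and 1.55 CPM in SD9 to SD14. SD11 and SD12 were highest, and SD14 was inside the control range (log2 fold change 3.10, SE 0.93, edgeR adjusted p = 0.0467, and adjusted p = 0.158 without SD1 and 0.193 without SD3). The raised G2/M genes numbered 41 without SD13 and SD14, 2 without SD1 and 0 without SD3. The share of cells with UMIs of at least 2 G2/M genes at 2000 UMIs was 36.9 to 49.8% in drug and 33.6 to 48.5% in control (exact permutation p = 0.369), and that for S phase genes 37.5 to 51.1% and 37.1 to 44.5% (exact permutation p = 0.726). Without thinning, the G2/M shares were 82.1 to 95.3% and 66.8 to 94.8%, so they cannot be read as shares of dividing cells. Summed over the list, G2/M genes were at 1091 to 2481 CPM in drug and 625 to 1070 CPM in control rats. Of 18 cell cycle inhibitor and related genes 2 were raised, CDK4 and CDKN2C, and 2 lowered, RB1 and RBL2. Both shares, 11.1%, are below those over all genes (14.4% and 13.4%) and so are no result about this list. Without SD3 neither the S phase nor the inhibitor list held a called gene, and without SD1 they held 0 raised and 0 lowered and 1 raised and 2 lowered. With library totals the S phase list held 2 raised and 0 lowered genes and the G2/M list 16 raised and 2 lowered. In the luminal libraries of the same rats, 23 of 46 G2/M genes were raised and 0 lowered (median log2 change 2.32). ACI basal cells, described further on, had 7 raised and 2 lowered (median 0.14), a raised share near the 16% over all ACI genes. Whole-gland SD basal cells had 0 raised and 2 lowered (median -0.10), and bulk SD basal samples 0 called of 45 (median -0.60).

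The largest changes were in weakly expressed genes. They were taken as the 10 largest in each direction among called genes with a mean of at least 20 UMIs per rat and no overlap, so their separation is part of the choice. The rises were KIF2C, NDUFA4L2, TBX21, COX4I2, DLK1, RASGRP2, LOC303566, RT1-BA, EMP3 and RT1-BB, with log2 fold changes of 2.72 to 4.04. SD13, the smallest library, was highest for 6 of them. NDUFA4L2 and COX4I2, relatives of respiratory chain subunits, were at 18.8 and 21.2 CPM in SD13 and 3.73 and 3.95 CPM in the next drug rat. The summed markers of pericytes and smooth muscle, NDUFA4L2 among them, were also highest in SD13, as given above, and were at 13.6 to 36.3 CPM in control, and their part was not tested. DLK1, a Notch-related inhibitor of differentiation, was at 8.79 to 62.6 CPM in drug and 2.54 to 3.56 CPM in control.

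The falls were HYDIN, CTTN, MRPL1, HMGB3, COL6A6 and 5 features named only by a genome scaffold, with log2 fold changes down to -4.35. HYDIN, known from motile cilia, was at 23.6, 14.6 and 16.6 CPM in control and 0.129 to 2.36 CPM in drug. CTTN, cortactin, which binds branched actin, was at 8.24, 7.13 and 6.26 CPM in control and 0.29 to 1.9 CPM in drug. HYDIN, CTTN, MRPL1, HMGB3 and the 5 scaffold features were called whichever rat was left out. COL6A6 and the 10 rises above were not. Of 1004 features named by clone or scaffold, a set chosen after seeing the values, 125 were lowered (12.5%, against 13.4% of all genes tested) and 50 raised (4.98%, against 14.4%). With library totals 226 were lowered and 28 raised. Without SD1 the counts were 43 lowered and 17 raised, and without SD3 22 lowered and 4 raised. Together these features took 2.4 to 3.44% of UMIs in drug and 5.35 to 7.33% in control. One of them, AC134224.3, was at 38409, 32037 and 48138 CPM in control and 16885 to 30317 CPM (median 21353) in drug (log2 fold change -0.83, SE 0.21, edgeR adjusted p = 0.0248, and adjusted p = 0.101 without SD1 and 0.164 without SD3).

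The luminal libraries of the same 9 rats, which therefore share the control animals, differed about as widely, with 2494 of 14616 genes raised (17.1%) and 2108 lowered (14.4%). The log2 fold changes in basal and luminal cells were 2.18 and 2.63 for PHGDH, 1.69 and 1.32 for GAPDH, -1.59 and -1.86 for CCN2, and -2.21 and -1.28 for BHLHE40. MYH11 had -1.41 in basal cells and -0.05, not called, in luminal cells. A direct edgeR test of basal against luminal effects called 0 of 15752 genes (0%), with 494 at an unadjusted p under 0.05. It did not pair the fractions of a rat. DESeq2 called 5, and edgeR with the rat as a replicate block, which uses the shared animals, 1. In the blocked fit 1032 genes had an unadjusted p under 0.05. So few calls do not show that the effects were equal. The gene of the blocked fit was LSMEM1 (basal minus luminal log2 change -2.18, edgeR adjusted p = 0.084), and those of DESeq2 were PTPRR, LTBP2, PXDC1, PIR and KLF3. None of these 6 is among the genes described above.

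ACI rats, an inbred strain in which oestrogen induces mammary tumours, gave 3 drug and 3 control basal libraries chosen by the same rule for cells, from rats dosed in the same way from about 35 days of age. There 2212 of 13849 genes were raised (16%) and 2510 lowered (18.1%). Of the genes called in SD basal cells and tested there, 1745 of 2040 raised and 1709 of 1909 lowered genes had the same sign. In ACI basal cells CCN2 fell by 2.48, BHLHE40 by 1.29, FOS by 1.16 and TP63 by 0.65 on the log2 scale, and PHGDH rose (1.29). Some lists with 0 raised genes in SD cells went both ways here. TGFβ targets had 4 raised and 10 lowered of 28, immediate early genes 6 and 9 of 27 and clock genes 5 and 8 of 18. Glucocorticoid-responsive genes had 6 and 1 of 14. The median log2 change of interferon-stimulated genes was 0.16. Nuclear-encoded respiratory chain genes had 16 raised and 0 lowered of 28. Ribosomal protein genes took 12.8 to 13.1% of UMIs in ACI drug rats and 9.09 to 9.71% in ACI control rats. The drug effect differed between strains for 41 of 14674 genes (0.279%) with edgeR and for 213 with DESeq2. HK2 was one of them, with log2 fold changes of -1.29 in SD and 1.22 in ACI cells (edgeR adjusted p of the difference = 0.0153).

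The whole-gland libraries came from 6 drug and 3 control SD rats under the same dosing, were not sorted, and were made with a kit that reads the 5′ end of RNA, where the sorted libraries read the 3′ end. Basal cells were chosen there as cells with at least 1000 UMIs, a UMI of at least 2 of KRT5, KRT14 and TP63 and none of PTPRC, outside the SORBS2, PROCR and COL3A1 rules, which gave 6960 cells. KRT5, KRT14 and TP63 are therefore not read as results in them. Of 14374 genes 3214 were raised (22.4%) and 2875 lowered (20%).

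The directions in whole-gland cells often opposed those of sorted cells. Of 2048 genes raised in sorted cells, 992 had the same sign, 471 were called raised and 588 lowered. Of 1872 genes lowered in sorted cells, 678 had the same sign, 220 were called lowered and 601 raised. CCN2, lowered in sorted cells, was raised in whole-gland cells (log2 fold change 0.67, SE 0.21, edgeR adjusted p = 0.0236). So were BHLHE40 (0.89), SMAD7 (1.59), SKIL (1.32), MYH11 (1.57), FOS (1.07) and IGFBP5 (1.62). PRDX1, raised in sorted cells, was lowered (-0.88), as was KRT17 (-0.41). ACTA2 and HSPA8 were raised in both sets of libraries (0.96 and 0.92), and GAPDH and PHGDH were not called in whole-gland cells (-0.00479 and -0.10). Of 29 TGFβ targets 11 were raised and 4 lowered there. Contractile genes had 13 raised and 1 lowered of 21, and immediate early genes 16 and 2 of 27. Hormone receptors had 10 and 0 of 13, and clock genes 9 and 1 of 18. NRF2 targets had 1 raised and 10 lowered of 14, and glycolysis and hypoxia genes 2 and 10 of 19. Ribosomal protein genes kept the sorted direction (43 raised and 2 lowered of 72). Nuclear-encoded respiratory chain genes had 5 raised and 0 lowered of 28 (median log2 change 0.20, all genes 0.09). That raised share is below the 22.4% over all whole-gland genes and so is no result about this list. Mitochondrially encoded genes had 4 raised and 0 lowered of 13 (median log2 change 0.16). The difference between sorted and whole-gland effects was not tested. Kit, sort, rats and the rule for cells all differed, as did the authors' keratin and PTPRC filters, made on sorted tables only. These cannot be told apart in it. The whole-gland rule used KRT14 and TP63, which fell in sorted cells, and the part of that choice was not tested.

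In bulk RNA of sorted SD basal cells on day 0 (4 drug and 4 control rats), limma on log2(value + 1) called 0 of 12571 genes (0%) at an adjusted p of 0.05 or less, with 494 at an unadjusted p under 0.05. Fewer cells of a type and less RNA per cell cannot be told apart in bulk. On that log2(value + 1) scale, which understates changes of low genes, the change was 0.11 for BHLHE40, -0.41 for TP63, -0.64 for IGFBP5, -0.11 for GAPDH and -0.05 for PHGDH. Of the genes called in single cells and tested in bulk, 555 of 1788 raised and 492 of 1280 lowered genes had the same sign.

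**Figure D5:**
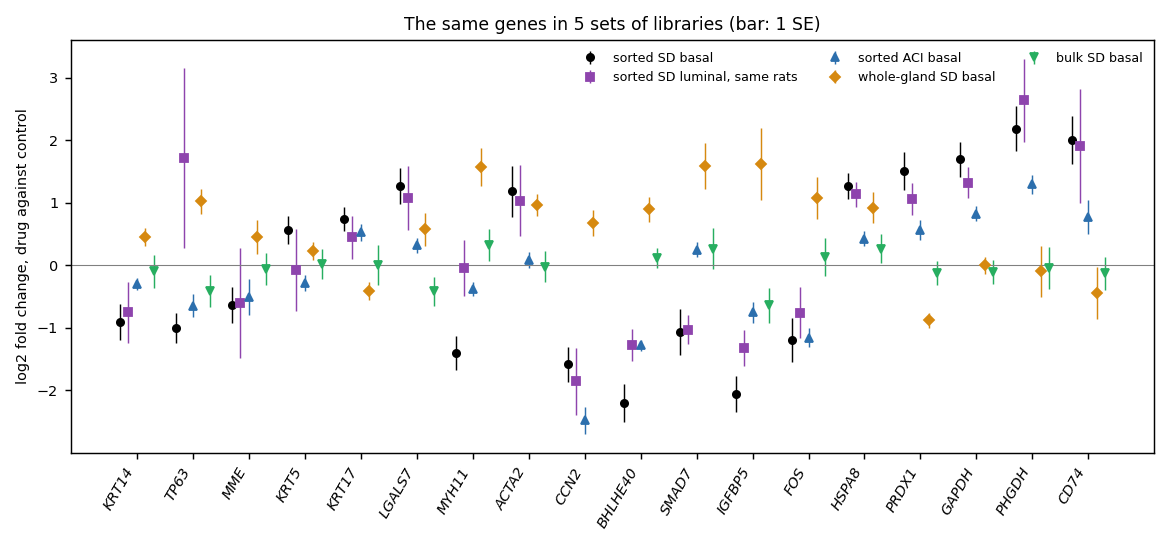
Log2 fold change of drug against control, with bars of 1 SE, for 18 genes in sorted SD basal cells, luminal cells of the same rats, ACI basal cells, whole-gland SD basal cells (chosen on KRT5, KRT14 and TP63) and bulk SD basal samples. SMAD7 is at -1.07 in sorted and 1.59 in whole-gland basal cells, and PHGDH at 2.18 in sorted basal cells and -0.05 in bulk.

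The spread between rats of the same group was measured gene by gene. Among 8014 genes with at least 500 UMIs in the basal and in the luminal sums and a basal UMI in every rat, the median SD of log2 CPM about the group mean was 0.35. The 10 largest SDs, from 1.85 to 2.14, were those of KIF4A, PCLAF, TOP2A, HIST1H1B, UBD, SNCG, SPC24, THRSP, NECAB3 and HIST1H1D. KIF4A, PCLAF, TOP2A and SPC24 act in DNA replication or chromosome segregation, and HIST1H1B and HIST1H1D encode histones. Among drug rats TOP2A ranged from 3.19 CPM in SD13 to 96.5 CPM in SD11. SNCG, a synuclein, ranged from 6.97 to 279.8 CPM among drug rats and from 1.38 to 16.7 CPM among control rats.

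The spread between cells was measured within each library. After thinning, the variance of UMIs per cell divided by their mean, about 1 for random sampling alone, had a median of 1.06 over 2643 genes with a mean of at least 0.1 UMI. The 10 highest ratios, averaged over the 9 rats, were those of FABP4, AC134224.3, APOE, FOS, CRIP1, CXCL10, CXCL1, CCL2, CXCL14 and KRT15. FABP4, a fatty acid carrier of adipocytes and endothelium, had a ratio of 17.1 (3.88 to 35.5 by rat, highest in SD1) at a mean of 0.151 UMIs per cell. Its mean was 0.0523 to 0.666 UMIs in drug rats and 0.019 to 0.0784 in control rats. Only drug libraries took it past the minimum of 0.1. The ratio in SD1, a control library of 740 members, therefore rests on few UMIs. CRIP1 was at 0.058 to 2.12 in drug rats and 0.0154 to 0.131 in control rats. FOS had a ratio of 12 (7.83 to 16.4 by rat) and KRT15 of 6.29 (4.91 to 7.15). APOE, a lipid carrier, had a UMI in 96 to 99.9% of basal cells at 2000 UMIs, so its cells differed in amount. CXCL14, a chemokine, had a UMI in 15.8 to 56.5% of basal cells and at most 0.109% of luminal cells.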

How the data were processed

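Sorted fractions were read with 10x 3′ chemistry, 1 rat per library, and replicates are rats. The single-cell tables hold UMI counts per gene and cell, deposited by the authors after Cell Ranger 4.0.0 on rn6 (whole gland 5′ chemistry and Cell Ranger 7.0.0). For sorted tables the authors had removed cells with few genes, much mitochondrial RNA, PTPRC or few keratin reads, which also limits what other cells can be seen. The bulk values are a signal deposited by the authors, read counts (STAR 2.5.1b, HTSeq) divided by DESeq2 size factors. All (100%) were whole multiples of 1 read within 0.01, giving 13830353 to 17523197 reads per basal sample.

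Members' UMIs (3677318 to 25939282 per rat) were summed per rat. Genes with at least 10 UMIs in all were tested with edgeR 4.0.16 (TMM, robust quasi-likelihood, Benjamini-Hochberg adjusted p of 0.1 or less), and the SE is the log2 fold change divided by the root of F. Bulk values were tested with limma 3.58.1 (adjusted p of 0.05 or less). Differences between strains and fractions were interaction terms. Per-rat measures were compared by two-sided exact permutation. DESeq2 1.42.0, library totals, other filters on genes and cells, and leaving out each rat were alternatives. Scripts were tested on simulated data. Doublets were not called.

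Genes were named as the 10 largest changes in each direction (mean of at least 20 UMIs per rat, no overlap), up to 4 per list and direction (mean of at least 20 UMIs), a fixed set of basal and TGFβ genes, and the 10 of largest spread between rats and between cells. RPL3, KRT8, KRT18, COL17A1, LMOD1, MYL9, TPM2, INHBB, ACVR1B, BMPR2, HLF, BHLHE41, NR3C2, TJP1, RPS27A, ATF4, INSIG1, LAPTM5, the genes called for the difference between fractions and the ribosomal and scaffold sets were named after their values were seen. Among the genes named after their values were seen, INHBB, HLF, BHLHE41, NR3C2 and LAPTM5 had means under 20 UMIs per rat. The members and lists were chosen with earlier results of these data known. The symbols of mitochondrially encoded genes were matched to the spelling of the tables, which lack the MT prefix, after these were seen. The result of 1 marker list is not reported here.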

Additional observations from a re-analysis of the deposited data

Results flagged for a closer look

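In 4 genes 1 drug rat lay far from the other 5, with a gap to its nearest neighbour above Dixon's 95% critical value for 6 samples. KRT17 was at 10919 CPM in SD14, INHBA at 17.7 CPM in SD13, SMAD3 at 43.2 CPM in SD14 and FOS at 2425 CPM in SD13, each the highest of the 6. Chance gives such a gap in about 1 of 20 groups, and 57 genes and 9 per-rat measures were looked at.

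The effect of the drug on HK2 and HYDIN differed between SD and ACI basal cells in edgeR's test of the difference itself. For HK2 the SD minus ACI difference in log2 fold change was -2.56 (SE 0.41, edgeR adjusted p = 0.0153), with -1.29 in SD and 1.22 in ACI cells. For HYDIN it was -3.998 (SE 0.81, edgeR adjusted p = 0.0635), with -4.35 in SD and -0.38 in ACI cells. The strains were dosed from different ages.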

How the results depend on the processing

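Depth limited the low genes, and 14304 genes had at least 10 UMIs over the 9 rats. In SD basal cells 2196 genes were called at an adjusted p of 0.05 in place of 0.1, and 252 to 4547 with 1 rat left out, the fewest without SD3, then SD1. Alternatives added after seeing the data gave 3772 genes without SD13 and SD14 and 3882 without ribosomal protein genes. With 1 rat left out, ACI basal cells had 3420 to 4150 genes, whole-gland cells 4247 to 6202 and bulk samples 0 to 1, the 1 without D8R. edgeR on recovered bulk reads, also added later, called 0 of 12820 genes. DESeq2 gave 213 genes for the difference between strains and 5 for that between basal and luminal cells, where the rat as a replicate block gave 1. Animal numbers shared between groups of the whole-gland libraries did not pair them (correlations of deviations 0.197, -0.259 and 0.14), and a block on them gave 4706 genes in place of 6089. Among differences of drug minus control means, with 1 rat left out, genes per cell ran from -342.7 to 147.3, the S phase share from -0.705 to 2.995 percentage points, the ribosomal share from 5.392 to 6.872 (at a p under 0.05 except without SD3), the mitochondrial share from 2.257 to 2.428 and the keratin share, 0.2757 with all rats (exact permutation p = 0.0238), from 0.1908 to 0.3543, with p above 0.05 without SD1, SD3, SD10, SD12 or SD14. Over all cells of the tables, with cells above 2000 UMIs thinned to 2000 and the rest at their own depth, the S phase difference was -1.483 and the keratin difference 0.2598, no longer under 0.05. Without thinning, added later, the S phase difference was 3.602 in members and -2.257 over all cells. Genes per cell at 2000 UMIs have no value over all cells. Of the log2 changes, sign was lost only for genes that were not called. With library totals TGFB2 was at -0.1258, ID2 at -0.238 and ID4 at -0.203. TGFB3 was at 0.03993 over all cells and 0.707 with the left-out cells kept, SMAD3 at 0.05733 in cells of at least 5000 UMIs, and ID1 at -0.001015 without cells that held stromal or leukocyte UMIs. Without SD13 and SD14, ID1 was at -0.08329 and ID2 at -0.2186. With 1 rat left out, TGFB3 ranged from -0.2804 to 0.1072, SMAD3 from -0.3433 to 0.1436 and ID2 from -0.001856 to 0.2971. For the 57 genes followed through every alternative, 1174 values kept direction and call, 95 lost the call, 22 gained it and 20 changed sign. The causes were not tested. TMM without mitochondrially encoded genes called 3966 of 14291 genes.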
